A study of Mus musculus with 18 samples.

Results

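Control iPSC line 6 was compared with control iPSC lines 3, 4 and 5, the other control lines of a study of iPSC lacking the DNA methyltransferases Dnmt3a and Dnmt3b. Induced pluripotent stem cells (iPSC) are somatic cells returned to a state like that of the early embryo. The comparison used the 12 of 18 arrays titled control iPSC: 3 arrays of line 6 and 9 of lines 3-5, 3 for each line. On each array one dye held RNA of a control line and the other held RNA of a Dnmt3ab deficient clone (8, A6 or B2) that was labelled as showing signs of differentiation. Each line was read once against each clone, so the clone cancels between lines. The genes described are 254 autosomal genes of germline, 2-cell stage, imprinted and pluripotency lists, out of 23785 autosomal genes tested, chosen by the positions in the array files. The line was singled out because it differed in these same arrays, so its differences below are a description, counted at a Benjamini-Hochberg adjusted p under 0.05 in limma, and they support nothing further.

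The control lines are labelled as control only. Their strain, sex, cell of origin and reprogramming factors, and the part of each gene deleted in the deficient clones, are not given in the sources used here. All cells were mouse iPSC kept on irradiated embryonic fibroblast (MEF) feeders and moved onto gelatin for a short time before RNA was taken, so feeder RNA could remain. Line 6 is a single line, and nothing says that its 3 arrays came from separate cultures. The spread between arrays may therefore be technical, and line 6 against 3 lines is a comparison of 1 with 3. The pluripotency factors Pou5f1, Sox2 and Nanog were well above background on 3 of 3 line 6 arrays and on 9 of 9 arrays of lines 3-5.

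DNA methylation at CpG dinucleotides keeps many germline genes silent in somatic cells. Dnmt3a and Dnmt3b place it, with Dnmt3l as a cofactor without activity of its own, and Dnmt1 copies it when DNA is replicated. Imprinted genes are read mainly from either the maternal or the paternal copy, and methylation at their control regions differs between the copies. The imprints can be lost or altered in cultured pluripotent cells. Genes of the 2-cell embryo, such as the Zscan4 family, are active for short periods in a minority of pluripotent cells. In bulk RNA, fewer cells of a type and less RNA per cell cannot be told apart.

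One array went against its labels. On the array of line 5 with clone 8, Dnmt3a was at a log2 ratio of -0.05 (control over deficient clone), where the other 11 arrays ran from 1.54 to 2.20. Srgn, a secreted proteoglycan that was far higher in the differentiating clones, was at 0.38 there and at -7.05 to -2.70 on the other 11. The log ratios of this array correlated across genes at -0.65 with those of line 6 on the same slide and clone, and their SD was 0.223 against 0.360 to 0.457 elsewhere. The 12 arrays were scanned on 1 day on 3 slides, 1 slide per clone, with 80.2% to 92.3% of probes well above background and none saturated. Results are given with all 12 arrays, and many again without that one. Counts by role group, by promoter, of genes nearer the clones and of several marker lists are given with 12 arrays only.

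Lines 3, 4 and 5 were close to each other and line 6 was not. Between pairs of lines 3-5, 4 to 73 autosomal genes differed by at least 1 log2 unit, and 3 to 7 without the array of line 5 with clone 8. Between line 6 and each of them the number was 464 to 785, and 490 to 529 without that array. The median absolute difference of line 6 from lines 3-5 was 0.104 log2 units, beside a median SE of 0.0599. In all, limma called 8231 of 25085 genes (32.8%), 10853 (43.3%) without that array and 5336 without the array of line 6 with clone 8. With 1 value per line it called 4125 (16.4%) and 6707 (26.7%). Among autosomal genes 15% were higher in line 6 and 17.7% lower, and without the array of line 5 with clone 8 these were 20.3% and 22.9%. Of 58 genes chosen for naming that were called, 16 lost their call with 1 value per line: Stra8, Tdrd5, Hsf5, Cobl, Tssc4, Dhcr7, Impact, Dlk1, Mkrn3, Blcap, Tbx3, Tdgf1, Cdh1, Etv5, Foxd3 and Dnmt1. Of these 16, only Hsf5, Mkrn3, Blcap and Etv5 did not pass with 1 value per line when the array of line 5 with clone 8 was left out.

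The promoters of 5 genes that stood out in line 6 are shown as the 250 bases before the RefSeq start (GRCm38.p6), read 5′ to 3′ on the gene's strand. Dazl, Hormad1, Sycp1 and Tex19.1 are germline genes with many CpG dinucleotides there, and Zscan4c, of the 2-cell stage, has few. Capitals mark CACGTG, an E-box, and TCCCGC or its reverse complement GCGGGA, the core letters of E2F sites.
Dazl, chr17:50293621-50293870, minus strand, 20 CpG: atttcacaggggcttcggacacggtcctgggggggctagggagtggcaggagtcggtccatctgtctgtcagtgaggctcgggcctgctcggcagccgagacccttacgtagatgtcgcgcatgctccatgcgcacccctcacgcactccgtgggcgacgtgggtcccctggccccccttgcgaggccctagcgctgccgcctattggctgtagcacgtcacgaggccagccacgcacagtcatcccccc
Hormad1, chr3:95559427-95559676, plus strand, 19 CpG: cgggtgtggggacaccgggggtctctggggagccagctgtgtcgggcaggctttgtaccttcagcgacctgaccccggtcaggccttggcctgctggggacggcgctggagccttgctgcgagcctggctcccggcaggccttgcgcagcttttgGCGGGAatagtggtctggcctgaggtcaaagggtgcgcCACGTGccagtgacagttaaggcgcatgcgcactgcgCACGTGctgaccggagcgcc
Sycp1, chr3:102936101-102936350, minus strand, 17 CpG: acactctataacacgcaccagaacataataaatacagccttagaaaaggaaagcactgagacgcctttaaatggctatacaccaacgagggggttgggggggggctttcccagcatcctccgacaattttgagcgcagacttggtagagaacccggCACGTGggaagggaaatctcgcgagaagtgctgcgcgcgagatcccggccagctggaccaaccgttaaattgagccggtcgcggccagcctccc
Tex19.1, chr11:121145893-121146142, plus strand, 15 CpG: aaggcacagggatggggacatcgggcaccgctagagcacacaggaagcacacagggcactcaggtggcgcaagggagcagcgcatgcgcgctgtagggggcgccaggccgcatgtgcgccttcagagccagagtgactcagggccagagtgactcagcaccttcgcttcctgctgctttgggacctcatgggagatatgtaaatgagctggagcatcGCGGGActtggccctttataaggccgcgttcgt
Zscan4c, chr7:11005495-11005744, plus strand, 3 CpG: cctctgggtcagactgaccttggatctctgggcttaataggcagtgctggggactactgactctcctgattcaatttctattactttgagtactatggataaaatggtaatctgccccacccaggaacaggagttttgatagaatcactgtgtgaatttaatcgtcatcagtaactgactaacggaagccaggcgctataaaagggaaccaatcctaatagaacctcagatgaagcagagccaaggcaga

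Over the lists, the letters were spread unevenly. RefSeq promoters of this table were found for 72 of 83 germline members and 23 of 27 of the 2-cell stage list. Of all 27025 promoters, 6.05% held CACGTG on either strand, which is its own reverse complement. It was in 13 of 33 promoters of germline genes higher in line 6 (39.4%), in 4 of 29 of those that did not pass (13.8%) and in 0 of 10 of those lower. TCCCGC or GCGGGA was in 11 of the 33 (33.3%), 7 of the 29 (24.1%) and 5 of the 10 (50%), against 16.9% of all promoters. The median number of CpG in the window was 13 for the germline genes higher in line 6, 11 for those that did not pass, 21 for those lower, 1.5 for the 2-cell stage genes higher in line 6 and 6 over all promoters. These matches describe the windows and say nothing of what binds there.

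The germline list was the largest of the 6. In it 17 genes were higher in line 6 by at least 1 log2 unit and 0 lower by as much. Among the 18 primed pluripotency genes 4 were lower by as much and 0 higher. The shares of all autosomal genes were 1.08% higher and 1.16% lower by that much. Line 6 was higher for 37 of the 83 measured autosomal germline members (15% of all autosomal genes were), lower for 10 (17.7%), and 36 did not pass. Without the array of line 5 with clone 8 these were 49, 16 and 18, beside 20.3% and 22.9% of all genes, and 47 members had the same call in both. With 1 value per line, 23 were higher and 5 lower, beside 7.34% and 8.86% of all autosomal genes. The median difference was 0.23, and -0.0023 over all autosomal genes. It was 0.22, 0.23 and 0.21 within clones 8, A6 and B2, and 17 members were higher by at least 1 log2 unit against 1.08% of all genes. Values within a clone, here and below, had no dye term. Within clone 8, line 6 was in Cy3 and lines 3-5 in Cy5, so dye and line cannot be told apart there. The array of line 5 with clone 8 is included in that value. Asz1 passed the filter on dim probes only through line 6. Of 101 listed genes 91 were on the array, 89 were measured and 6 of these were not autosomal.

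Dazl, an RNA-binding protein needed for germ cell development, had its log2 ratio (control over the mean of the 3 differentiating clones, with clone and dye terms taken off) at -0.20, -0.12 and -0.09 on the 3 line 6 arrays and from -2.48 to -2.04, median -2.28, on the 9 others. Line 6 was thus near 0, the mean level of the deficient clones, and lines 3-5 lay together far below it. The mean of lines 3-5 was -2.30 ± 0.127 (SD, n = 3 lines) and the difference 2.15 ± 0.0853 (SE), or 2.18 ± 0.0567 without the array of line 5 with clone 8. The probe lies on chromosome 17 at 48427556 to 48427615 (build mm7, as are the positions below, from the array files). Ddx4, an RNA helicase used as a general germ cell marker, was at 0.27, 0.11 and 0.16 on the 3 line 6 arrays and from -0.01 to 0.36, median 0.26, on the 9 others and did not pass, at -0.068 ± 0.0784.

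**Figure D1:**
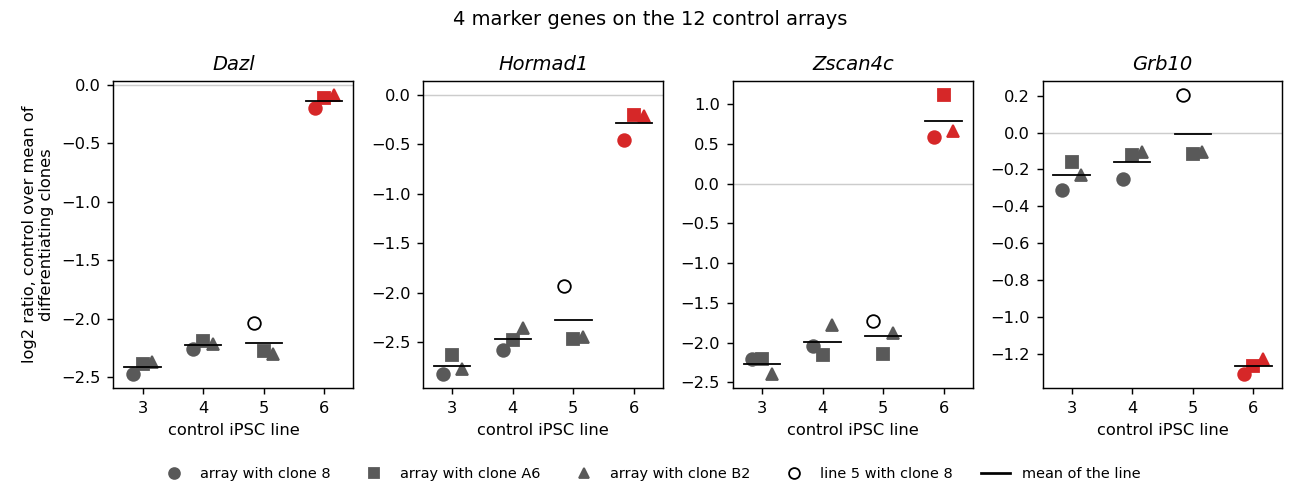
Log2 ratio of control over the mean of the differentiating clones on each of the 12 arrays (points, shaped by clone) for 4 genes, with the mean of each line as a bar and line 6 in red. Dazl, Hormad1 and Zscan4c were higher on all 3 line 6 arrays than on the 9 others and Grb10 was lower; the open circle is the array of line 5 with clone 8.

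Genes of the meiotic chromosome axis and synapsis held the germline gene with the largest difference. In this group of 15, line 6 was higher for 12 (15% of all autosomal genes) and lower for 1 (17.7%), with a median difference of 0.61. Sycp1, which forms the transverse filaments of the synaptonemal complex, was at 1.80, 1.71 and 1.595 on the 3 line 6 arrays and from -2.63 to -0.84, median -1.38, on the 9 others. The lowest value was that of line 5 with clone 8, and the other 8 ran from -1.54 to -0.84. The difference was 3.12 ± 0.316, and 2.95 ± 0.0505 without that array. Its probe spans 102647366 to 102648037 on chromosome 3.

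Hormad1, which sits on the axes of unsynapsed meiotic chromosomes, was at -0.45, -0.20 and -0.21 on the 3 line 6 arrays and from -2.82 to -1.93, median -2.48, on the 9 others. Its groups did not overlap, and line 6 again lay near the mean level of the clones. The difference was 2.21 ± 0.169, or 2.29 ± 0.0804 without the array of line 5 with clone 8, for a probe on chromosome 3 at 95454122 to 95454181. Its relative Hormad2 differed by 1.10 ± 0.144, the meiotic cohesin subunit Smc1b by 2.23 ± 0.215 and the axis protein Sycp3 by 1.13 ± 0.184. The cohesin Stag3 did not pass, at 0.43 ± 0.173, and was higher without that array, at 0.52 ± 0.055. Syce3, of the central element, was at -0.59 ± 0.304 and passed as lower only without it, at -0.42 ± 0.0364.

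In meiotic entry, 3 of 5 genes were higher (15% of all autosomal genes) and 0 lower (17.7%). Stra8, induced by retinoic acid as germ cells enter meiosis, was at 1.29, 0.88 and 0.72 on the 3 line 6 arrays and from -3.80 to -0.84, median -1.99, on the 9 others. The groups did not overlap, but lines 3-5 differed among themselves, at -1.06, -1.86 and -2.72. The array of line 5 with clone 8 was the lowest, at -3.80, and line 5 was at -2.30 with clone A6 and -2.25 with B2. The difference was 2.94 ± 0.515, and it did not pass with 1 value per line. Without the array of line 5 with clone 8 the difference was 2.68 ± 0.204, and it passed as higher with 1 value per line. The SD over lines 3-5 was 0.83 with that array and 0.46 without it. Sohlh2, a transcription factor of early germ cells, differed by 1.43 ± 0.055, and lines 3-5 were within an SD of 0.0486 of each other. Rec8, a meiotic cohesin, was at -0.049 ± 0.0696 and did not pass.

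The piRNA pathway, which silences transposons in germ cells, was mixed: of 22 genes 10 were higher (15% of all autosomal genes), 4 lower (17.7%) and 8 did not pass. Tex19.1, which is expressed in germ cells and pluripotent cells, was at 1.54, 1.49 and 1.51 on the 3 line 6 arrays and from -1.61 to -0.60, median -0.97, on the 9 others. Line 6 was above the mean of the clones and lines 3-5 below it. The difference was 2.51 ± 0.173, or 2.42 ± 0.0668 without the array of line 5 with clone 8. Mael, a protein of the perinuclear granules where piRNAs act, differed by 1.56 ± 0.212, Gtsf1 by 1.27 ± 0.0934 and Tex19.2 by 1.43 ± 0.0847. The Tudor domain genes Tdrd5 and Tdrd7 were lower, at -0.63 ± 0.12 and -0.33 ± 0.0633. Gpat2 was higher, at 1.44 ± 0.406, with overlapping arrays. Fkbp6, a chaperone, was at 1.03 ± 0.37 and passed only without that array, at 1.23 ± 0.0859.

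In meiotic recombination 4 of 12 genes were higher (15% of all autosomal genes), 2 lower (17.7%) and 6 did not pass. Rec114, needed for the programmed DNA breaks of meiosis, differed by 1.43 ± 0.157 and Dmc1, the meiotic recombinase, by 0.91 ± 0.0796, while Spo11, which cuts the DNA, was at -0.0068 ± 0.0543 and did not pass.

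Among the 10 germline genes lower in line 6, Ddx25, a helicase of spermatids, had the largest difference, at -0.70 ± 0.0545. For it line 6 lay at -0.09, -0.09 and -0.12 and the 9 others between 0.49 and 0.75. Prdm1, a repressor that specifies primordial germ cells, was lower, at -0.60 ± 0.0557, and Hsf5 at -0.57 ± 0.113. For both, all 3 line 6 arrays lay below the 9 others.

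**Figure D2:**
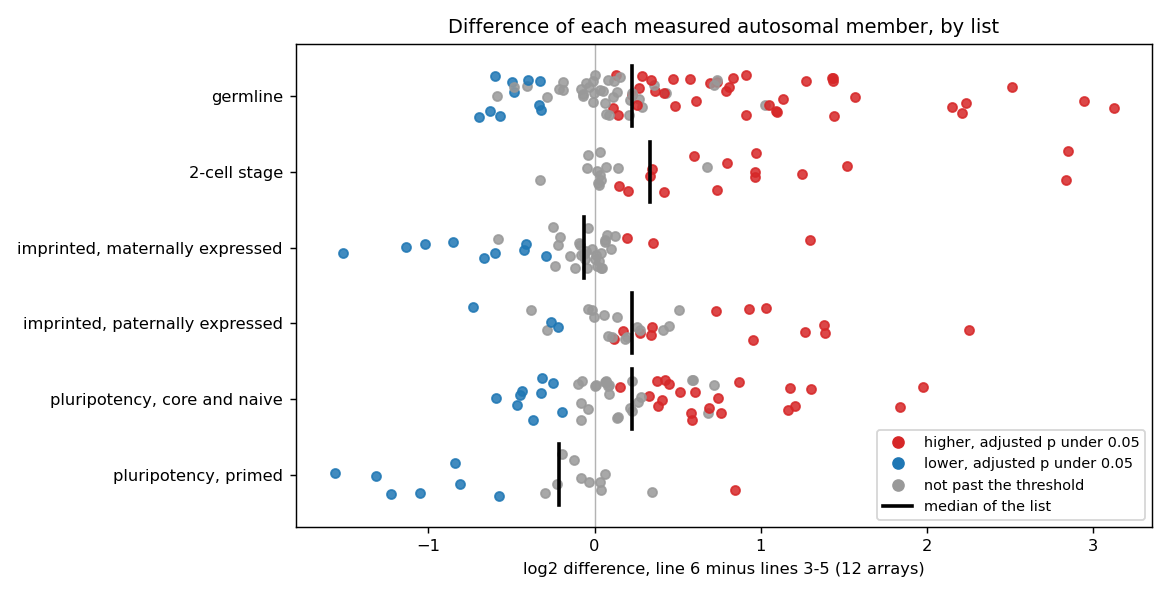
Log2 difference of line 6 from lines 3-5 for each measured autosomal member of 6 lists (points, coloured by call; black bars, list medians). Germline genes reached 3.12 and 2-cell stage genes 2.85, and the primed pluripotency list has its median at -0.21.

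Among 27 measured genes of the 2-cell stage, 15 were higher in line 6 (15% of all autosomal genes), 0 lower (17.7%) and 12 did not pass. Without the array of line 5 with clone 8, 18 were higher (20.3% of all autosomal genes) and 0 lower (22.9%). Over 1 value per line, 10 were higher (7.34%) and 0 lower (8.86%). Only 33 of 65 listed genes were on the array, and 2 members passed the filter on dim probes through line 6 alone (Arg2 and Obox2), a choice that fixes their direction. The median difference was 0.33, which is the value of Arg2 itself, and 0.36, 0.29 and 0.22 within clones 8, A6 and B2. Without Arg2 and Obox2, 14 of 25 were higher, with a median of 0.34.

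Zscan4c, a telomere factor of the 2-cell embryo, was at 0.59, 1.11 and 0.66 on the 3 line 6 arrays and from -2.40 to -1.73, median -2.14, on the 9 others. Line 6 lay above the mean of the differentiating clones and the 9 other arrays far below it. The difference was 2.85 ± 0.164, or 2.90 ± 0.134 without the array of line 5 with clone 8. The probe of Zscan4c lies on chromosome 7 at 9713271 to 9713330. Usp17la, a deubiquitinase of a repeated family, followed at 2.84 ± 0.147. Which near-identical copy either probe reads is uncertain.

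Other genes of the egg and early embryo were also higher. Nlrp4f differed by 1.52 ± 0.171, Ddit4l by 1.25 ± 0.0917 and the homeobox gene Obox6 by 0.96 ± 0.0614. Ooep, Khdc3 and Padi6, which belong to the maternal protein lattice of the egg, differed by 0.97 ± 0.199, 0.96 ± 0.0432 and 0.80 ± 0.137. Nlrp5 and Tle6, of the same lattice, were at -0.042 ± 0.0684 and 0.033 ± 0.0603 and did not pass. Of the genes known to respond to the factor Dux, 7 of 11 were higher (15% of all autosomal genes), or 6 of 10 without Arg2. Zfp352 at 0.42 ± 0.0571 was among them, and Tdpoz1 at 0.027 ± 0.0395 did not pass. Arg2 was not well above background on any array of lines 3-5. Its mean level was 6.56 log2 units in line 6. The dimmest probes well above background put lines 3-5 at 6.16 at most. By these levels line 6 was at least 1.32-fold (0.40 log2 units) higher. That exceeds the fitted difference of 0.33, so it is no minimum of that difference, and the size is uncertain.

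Many of these genes were nearer the mean level of the deficient clones in line 6 than in lines 3-5. Of the 37 germline genes higher in line 6, 25 (67.6%) had a log2 ratio nearer to 0 in line 6 than in lines 3-5, beside 29.8% of all autosomal genes higher in line 6. Their median log2 ratio was 0.05 in line 6 and -0.72 in lines 3-5. Of the 15 2-cell stage genes, Arg2 among them, it was 9 (60%), with medians of 0.18 and -0.39. Of the genes higher in line 6 it was 1 of 13 paternally expressed imprinted genes (7.69%) and 6 of 21 core and naive pluripotency genes (28.6%). Of 18 fibroblast and feeder genes lower in line 6 it was 17 (94.4%), beside 33.1% of all autosomal genes lower in line 6. Of other genes lower in line 6 it was 7 of 7 primed pluripotency, 3 of 3 trophoblast and 3 of 10 germline genes. Of 19 fibroblast and feeder genes that did not pass it was 15 (78.9%), beside 40.1% of all such autosomal genes. The trait was therefore not particular to germline and 2-cell stage genes. The ratio is to cells with signs of differentiation, not to the deficient iPSC without that note.

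**Figure D3:**
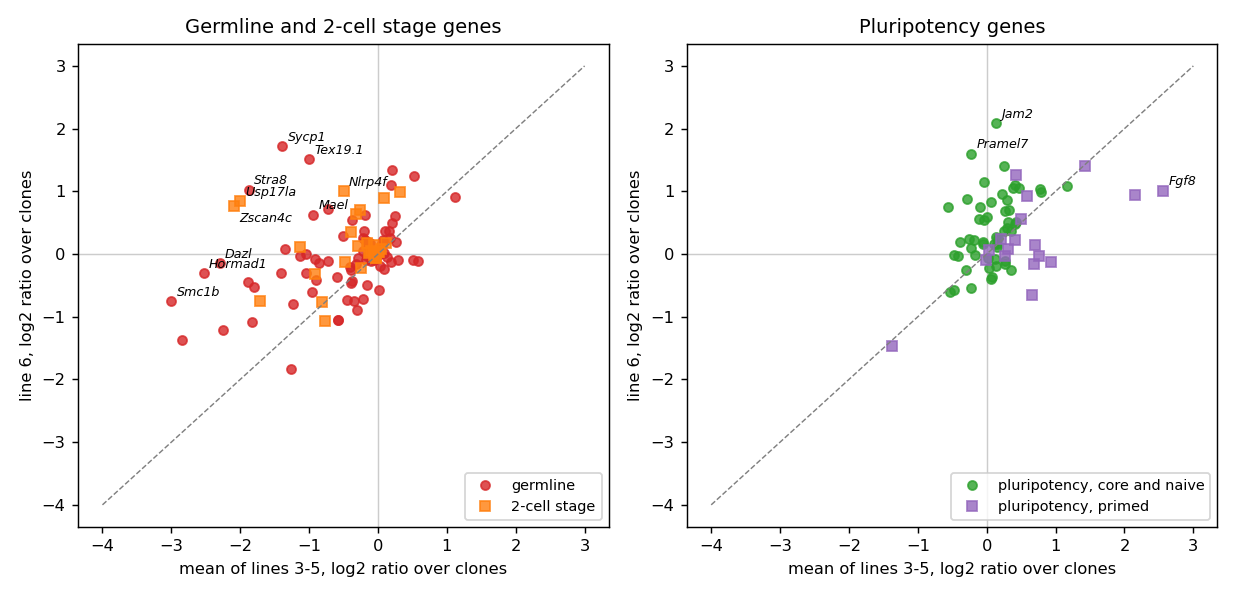
Log2 ratio over the differentiating clones in line 6 (vertical) against the mean of lines 3-5 (horizontal), each point 1 gene; the dashed line marks equal values. Dazl sits at -0.15 in line 6 and -2.30 in lines 3-5, while Fgf8, of the primed list, sits at 1.01 and 2.56.

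The 6 arrays without control lines held the same deficient clones, there with no note of differentiation, beside MEF or V6.5 embryonic stem cells (ESC), each reference in 1 dye, and were not used to single out line 6. There, 36 of the 37 germline genes higher in line 6 (97.3%) were above MEF on all 3 arrays, against 40.3% of all autosomal genes, and 55.1% of those higher in line 6. So were 8 of 10 germline genes lower in line 6 (80%) and 25 of 36 that did not pass (69.4%). The median log2 ratio of those higher in line 6 was 2.50 over MEF and 0.09 over V6.5 ESC. Dazl in the deficient clones 8, A6 and B2 was at 5.26, 5.73 and 5.51 over MEF and at -0.26, 0.28 and 0.04 over V6.5 ESC. Dazl was thus far above fibroblasts in all 3 clones and near the ESC line.

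Of the 2-cell stage genes higher in line 6, 13 of 15 (86.7%) were above MEF on all 3 arrays, beside 55.1% of all autosomal genes higher in line 6. Of those that did not pass it was 4 of 12 (33.3%), beside 35.6% of all such autosomal genes. Arg2 is among the 13 and Obox2 among the 12, and both passed the filter on dim probes only through line 6. Zscan4c was at 3.54, 5.03 and 4.26 over MEF and at 0.26, 2.33 and 1.14 over V6.5 ESC. Hormad1 was at 4.96, 5.02 and 5.84 over MEF and at 0.45, 0.67 and 1.48 over V6.5 ESC. Grb10, which was lower in line 6, was at -2.88, -2.47 and -2.40 over MEF and at 0.98, 1.47 and 1.54 over V6.5 ESC. A dye effect on a probe remains in these ratios.

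**Figure D4:**
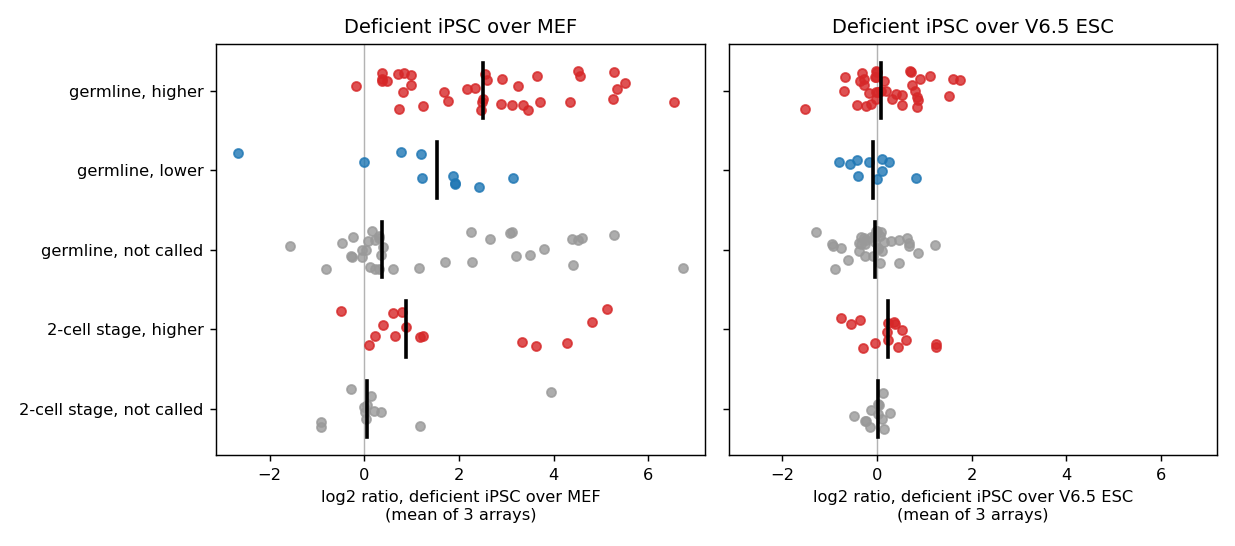
Mean log2 ratio of the deficient clones, with no note of differentiation, over MEF (left) and over V6.5 ESC (right), 3 arrays each, for germline and 2-cell stage genes grouped by their call in line 6; black bars are medians. The germline genes higher in line 6 have their median at 2.50 over MEF and 0.09 over V6.5 ESC.

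Of 40 maternally expressed imprinted genes 3 were higher (15% of all autosomal genes), 9 lower (17.7%) and 28 did not pass, with a median of -0.06. Of 32 paternally expressed genes 13 were higher (15%), 3 lower (17.7%) and 16 did not pass, with a median of 0.23. Without the array of line 5 with clone 8 the counts were 4 and 12 for the maternal list and 16 and 4 for the paternal one. The shares of all autosomal genes were then 20.3% higher and 22.9% lower. With 1 value per line 1 was higher and 7 lower in the maternal list and 6 and 1 in the paternal one, beside 7.34% and 8.86% of all autosomal genes. The difference between the lists was not tested.

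Grb10, an adaptor that restrains insulin receptor signalling and is maternally expressed in most tissues, was at -1.31, -1.27 and -1.23 on the 3 line 6 arrays and from -0.31 to 0.20, median -0.12, on the 9 others. All 3 line 6 arrays were below the 9 others, the highest of which was line 5 with clone 8. The difference was -1.14 ± 0.0948, and -1.09 ± 0.0387 without it, for a probe on chromosome 11 at 11882970 to 11883029. Cobl, the neighbour of Grb10 on chromosome 11, was higher by 1.30 ± 0.327, or 1.13 ± 0.118 without that array. Ddc, the neighbour on the other side, was at 0.13 ± 0.0873 and did not pass.

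Other maternally expressed genes that were lower were Ppp1r9a, a protein of synapses, at -1.51 ± 0.0904, Dhcr7, of cholesterol synthesis, at -1.02 ± 0.23, and Dcn, at -0.85 ± 0.0829. Dcn is also a fibroblast proteoglycan, and the fibroblast list was lower in line 6 as given below. For Ppp1r9a line 6 lay at -1.13, -1.13 and -1.21 and the 9 others between 0.12 and 0.57. H19, a noncoding RNA, was at -0.064 ± 0.0792 and did not pass. Cd81 and Tssc4, at the distal end of chromosome 7, were higher by 0.35 ± 0.0435 and 0.19 ± 0.035.

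The paternally expressed gene with the largest difference was Dio3, an enzyme that inactivates thyroid hormone. It was at 2.04, 1.82 and 1.90 on the 3 line 6 arrays and from -1.45 to 0.21, median -0.25, on the 9 others. Apart from line 5 with clone 8, the arrays of lines 3-5 ran from -0.42 to 0.21. The difference was 2.25 ± 0.291, and 2.10 ± 0.0494 without that array. In the same region of chromosome 12, Dlk1, a Notch ligand relative, was higher by 0.95 ± 0.176. The maternal noncoding RNAs Meg3, Rian and Mirg were at -0.58 ± 0.271, -0.21 ± 0.231 and 0.037 ± 0.296 and did not pass. Without that array Meg3 was lower, at -0.43 ± 0.074, and Mirg higher, at 0.20 ± 0.0559.

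Plagl1, a zinc finger factor of an imprinted growth network, was higher by 1.38 ± 0.296, Impact by 1.38 ± 0.286, Zrsr1 by 1.26 ± 0.189 and Peg12 by 1.03 ± 0.209. Each of these 4 had its lowest array in line 5 with clone 8, and without it the differences were 1.21 ± 0.0408, 1.23 ± 0.0723, 1.16 ± 0.0407 and 0.94 ± 0.121. Peg3, a zinc finger gene, was lower, at -0.73 ± 0.164. Mkrn3 and Blcap were lower, at -0.26 ± 0.0606 and -0.22 ± 0.0553, and other probes of Blcap passed in the opposite direction. Igf2, the fetal growth factor, was at 0.06 ± 0.306 and Snrpn at 0.27 ± 0.25, and neither passed. Without that array Snrpn was higher, at 0.14 ± 0.0364.

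In the pluripotency network the core factors Pou5f1 and Sox2 did not pass, at 0.067 ± 0.107 and -0.08 ± 0.12. Nanog was at 1.20, 0.92 and 0.97 on the 3 line 6 arrays and from -0.76 to 0.85, median 0.43, on the 9 others. It did not pass with 12 arrays, at 0.68 ± 0.287, and was higher without the array of line 5 with clone 8, at 0.53 ± 0.0371. Of 54 core and naive genes 21 were higher (15% of all autosomal genes), 9 lower (17.7%) and 24 did not pass. Without that array 28 were higher (20.3% of all autosomal genes) and 10 lower (22.9%). With 1 value per line 11 were higher (7.34%) and 3 lower (8.86%). The median difference was 0.23 with 12 arrays and 0.14 without that array, and 0.37, 0.17 and 0.19 within clones 8, A6 and B2.

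Among the naive genes, Tbx3 and Tcl1, which support self-renewal, differed by 1.18 ± 0.187 and 1.20 ± 0.148, and Zfp296 by 1.16 ± 0.26. Nr5a2, which can take part in reprogramming, differed by 0.74 ± 0.23, Gbx2 by 0.69 ± 0.12 and Zfp42 (Rex1) by 0.51 ± 0.112. Klf4, Klf2 and Esrrb did not pass with 12 arrays, at 0.59 ± 0.251, 0.26 ± 0.114 and 0.23 ± 0.0833. All 3 were higher without the array of line 5 with clone 8, at 0.47 ± 0.109, 0.21 ± 0.0506 and 0.19 ± 0.051. Mycn and Etv5 were lower, at -0.45 ± 0.0609 and -0.43 ± 0.0957, though Etv5 had probes that passed in both directions.

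Embryo and surface genes held the largest differences of this list. Jam2, an adhesion molecule, was at 2.30, 1.92 and 1.95 on the 3 line 6 arrays and from -1.70 to 0.93, median 0.22, on the 9 others, a difference of 1.98 ± 0.461, or 1.72 ± 0.0485 without the array of line 5 with clone 8. Pramel7 differed by 1.84 ± 0.236, Fbxo15, an F-box gene active in pluripotent cells, by 1.30 ± 0.104 and Dppa2 by 0.87 ± 0.149. Dppa2, with Dppa4 at 0.33 ± 0.0732, encodes a pair of DNA-binding proteins of the early embryo. Pramel6, which passed the filter on dim probes only through line 6, was at least 1.49-fold higher there, a bound from mean levels and not from the fitted difference. Cdh1 (E-cadherin) and Tdgf1, a Nodal coreceptor, were lower, at -0.46 ± 0.0926 and -0.59 ± 0.131.

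Primed pluripotency genes mark the later epiblast. In line 6, 7 of 18 were lower (17.7% of all autosomal genes) and 1 higher (15%). Without the array of line 5 with clone 8, 10 were lower (22.9%) and 3 higher (20.3%). The counts with 1 value per line were 5 lower (8.86%) and 0 higher (7.34%). Fgf8, a signalling factor of the epiblast, was at 1.09, 0.98 and 1.01 on the 3 line 6 arrays and from 1.53 to 3.49, median 2.57, on the 9 others. It was above the mean of the differentiating clones on all 12 arrays and least so in line 6, with a difference of -1.56 ± 0.346. Lef1, a Wnt effector, differed by -1.31 ± 0.123, Sall2 by -1.05 ± 0.108 and the tight junction gene Cldn6 by -0.84 ± 0.0427. Fgf5 was lower, at -1.22 ± 0.41, with overlapping arrays, and Otx2 did not pass, at -0.23 ± 0.0871, and was lower without that array, at -0.27 ± 0.0432. Foxd3 was the one gene higher, at 0.85 ± 0.219.

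**Figure D5:**
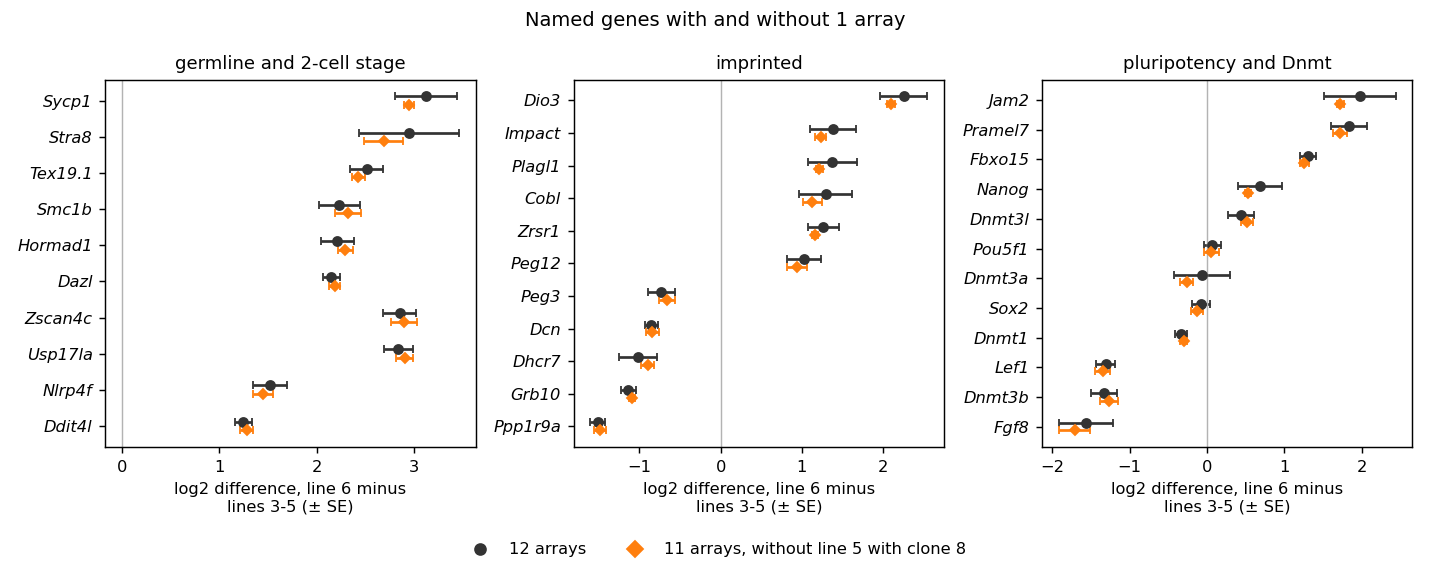
Log2 difference of line 6 from lines 3-5 (± SE) for named genes, with all 12 arrays (circles) and without the array of line 5 with clone 8 (diamonds). Sycp1 was at 3.12 and 2.95, and Nanog, Dnmt3l and Dnmt3a passed only without that array.

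Of the DNA methyltransferases, Dnmt3b had the largest difference. It was at -0.88, -0.75 and -0.76 on the 3 line 6 arrays and from 0.18 to 1.00, median 0.53, on the 9 others. With clone and dye terms taken off, all 3 line 6 arrays lay below the mean of the clones and the 9 others above it. The difference was -1.34 ± 0.169, or -1.27 ± 0.116 without the array of line 5 with clone 8. The probe lies on chromosome 2 at 153428204 to 153428263. Dnmt1 was lower, at -0.34 ± 0.0792. Dnmt3a, at -0.068 ± 0.365, and Dnmt3l, at 0.43 ± 0.17, did not pass. Without that array Dnmt3a was lower, at -0.26 ± 0.0811, and Dnmt3l higher, at 0.52 ± 0.074.

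Of 43 genes of DNA methylation and of repressors of germline genes, 13 were higher (15% of all autosomal genes), 11 lower (17.7%) and 19 did not pass, with a median of 0.03. Among 15 genes of the PRC1.6 complex, which represses germline genes, 6 were higher and 5 lower, beside the same shares. Rnf2, a histone ubiquitin ligase, and Wdr5 were higher, by 0.55 ± 0.0756 and 0.55 ± 0.0802, and Mga and Pcgf6, which are subunits of that complex, by 0.22 ± 0.0511 and 0.23 ± 0.0742. E2f6 was at 0.0068 ± 0.0589 and did not pass. The histone H3 lysine methyltransferases Ehmt2 and Ehmt1 were lower, at -1.13 ± 0.12 and -0.77 ± 0.108. The imprint keeper Zfp57 was higher by 0.64 ± 0.145, and its partner Trim28 was at 0.057 ± 0.112 and did not pass.

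Markers of other cells moved with the comparison. Of 39 fibroblast and feeder genes 18 were lower (17.7% of all autosomal genes) and 2 higher (15%). Without the array of line 5 with clone 8 these were 32 (22.9%) and 4 (20.3%), and with 1 value per line 6 (8.86%) and 0 (7.34%). Their mean log2 ratio over the clones was 0.40 in line 6 and 0.79, 0.98 and 0.65 in lines 3, 4 and 5. Col1a1 and Col1a2, the chains of type I collagen, were lower, at -0.95 ± 0.169 and -0.94 ± 0.126, and were well above background on all 12 arrays. The part of feeder RNA in the differences above was not tested.

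Of 25 endoderm genes 4 were higher, 0 lower and 21 did not pass, with a median of -0.07 that became 0.18 without the array of line 5 with clone 8. Of 18 mesoderm and ectoderm genes 3 were higher and 2 lower, of 16 trophoblast genes 5 and 3, and of 25 genes of the G2 and M phases 6 and 7. Of 16 housekeeping genes 4 were higher and 7 lower, with a median of -0.08. The shares over all autosomal genes beside these counts are 15% higher and 17.7% lower.

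Genes of the sex chromosomes also differed. Eif2s3y, a Y-linked translation factor, was at -1.67 in line 6 and at 3.00, 2.37 and 3.59 in lines 3, 4 and 5 (log2 ratio over the mean of the clones), a difference of -4.66 ± 0.406. The clones differed widely for this gene. Before clone and dye terms were taken off, line 6 was at -5.46 against clone 8, 0.24 against A6 and 0.65 against B2. Lines 3 and 4 were at 0.03 and -0.77 against clone 8, and lines 3-5 at 3.94 to 5.22 against A6 and B2. The probe of Uty was well above background on 1 of 3 line 6 arrays and on 9 of 9 others. The Y-linked Ddx3y, Uty and Kdm5d were lower, at -2.40 ± 0.282, -1.05 ± 0.123 and -0.53 ± 0.0721, and the other 4 Y-linked genes measured did not pass. The median of 909 X-linked genes was 0.05, and Xist, which silences an X chromosome in female cells, was at 0.11 ± 0.0408 and did not pass, and at 0.12 ± 0.041 passed as higher without the array of line 5 with clone 8. The part of the sex chromosomes in the autosomal differences was not tested.

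Over all autosomal genes the largest positive differences besides Sycp1, Stra8 and Zscan4c were Pramel39 at 3.38 ± 0.124, Calcoco2, an autophagy receptor, at 3.12 ± 0.66, and Aldh1a3, which makes retinoic acid, at 2.86 ± 0.389. Pramel39 belongs to a family of near-identical copies. The arrays of Calcoco2 in lines 3-5 ran from -2.86 to 0.82, and the lowest was line 5 with clone 8. Among the largest negative differences were those of Gna14, a G protein subunit, at -2.34 ± 0.233, Wdr86 at -2.25 ± 0.132, Rpgrip1 at -2.09 ± 0.153, Banp at -1.94 ± 0.22 and Sox11, a neural transcription factor, at -1.93 ± 0.19. The arrays of Gna14 were at -2.72, -2.76 and -2.77 on the 3 line 6 arrays and from -1.05 to 0.23, median -0.45, on the 9 others.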

How the data were processed

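RNA of control iPSC lines 3-6 was hybridised with RNA of deficient clones 8, A6 and B2 on 12 Agilent 2-colour arrays, on which the control was in Cy3 on 3 arrays and in Cy5 on 9. The intensity values are the scanner's mean and local background signals, per the file headers from Agilent Feature Extraction 10.1.1.1. The deposited log10 ratio of red over green, dye-normalized by that software, and the deposited table of log2 ratios, for which the submitters' processing notes name limma, were used as alternatives and to check direction.

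Backgrounds above 2 times the median of their array and dye were replaced by that median, a choice made after seeing the data. Normexp (offset 50), loess and Aquantile normalization followed in limma 3.58.1 (R 4.3.3). Probes had to be well above background on at least 0.5 of the control channels of line 6 or of lines 3-5, and 37087 of 41174 did so, 689 of them through line 6 alone. They gave 25085 genes, and 14948 of the names came from accessions in a RefSeq table. Where probes of a gene were called in both directions (5 of 190 members with several probes: Blcap, Etv5, Klf5, Mbd1 and Sdha), the gene is uncertain. The number of arrays limits the precision.

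The model held line 6 against the rest, the clone and the dye (7 residual degrees of freedom), with Benjamini-Hochberg adjustment over all genes. A second fit used 1 value per line (2 residual degrees of freedom). Replicate numbers 1 to 3 are the clones and also the slides, so the arrays of a number share the clone's RNA, and the clone term is the replicate block. In simulated data of 12 arrays and 25000 genes, the first fit recovered 98% of genes raised by 1 log2 unit. It recovered 94% of those lowered by 1 and 88% of those raised by 0.5, with 5.47% false among its calls. The second fit recovered 88% of those raised by 1, with 6.78% false. The simulated noise was independent between arrays and held no spread between lines. These rates therefore say nothing of the error in comparing 1 line with 3. Members and gene lists were chosen with earlier results of these data known. The named genes are the 4 markers, the Dnmt genes, Pou5f1, Nanog and Sox2, the up to 6 largest positive and 4 largest negative called differences per list whose arrays did not overlap, and the 6 largest each way over all genes, of which 1 is not reported here. Others were named, after their values were seen, to describe their role groups.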

Additional observations from a re-analysis of the deposited data

Results flagged for a closer look

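On the array of line 5 with clone 8 the adjusted log2 ratio stood far from the other 8 arrays of lines 3-5 for 30 of 77 genes and list medians examined by Dixon's criterion. In all 30 the value set apart was that of this array. The criterion sets apart about 1 in 20 groups of independent values by chance. The items examined share the same 9 arrays and most were chosen in them, so that rate does not apply here. Among the genes higher in line 6, its ratio was the lowest of the 9 for Sycp1 (-2.63), Stra8 (-3.80), Tex19.1 (-1.61), Ooep (-0.99), Cobl (-1.36), Dio3 (-1.45), Impact (-1.02), Plagl1 (-0.70) and Zrsr1 (-0.74). The same held for Jam2 (-1.70), Pramel7 (-1.08), Tcl1 (-0.61), Zfp296 (-0.78), Foxd3 (-0.43), Calcoco2 (-2.86), Aldh1a3 (-1.46) and Nanog (-0.76), of which Nanog did not pass. For Pramel39, also higher in line 6, it was the highest of the 9 (-1.73).

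Among the genes lower in line 6, its ratio was the highest of the 9 for Grb10 (0.20), Dnmt1 (0.12), Dhcr7 (0.37), Cdh1 (0.39), Wdr86 (1.11), Rpgrip1 (1.94), Banp (0.67) and Sox11 (0.74). Dnmt3a, which did not pass, was at 0.35 there. The list medians on this array were -0.24 for paternally expressed imprinted genes, -0.21 for core and naive pluripotency genes and 0.24 for primed genes.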

How the results depend on the processing

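Of 63 named genes 58 were called, and all 58 kept their direction in the 30 other settings run for them, in 1 of which 3 had no value, and 32 also kept the call in each. Most were chosen in these same arrays for large called differences without overlap. Their kept direction was thus largely fixed by that choice and is no support. With 1 value per line 16 of the 58 lost their call, with the 9 Cy5 arrays 19 and without line 6 replicate 1 14. The limits are that line 6 is 1 line, that lines 3-5 are 3, and that the array of line 5 with clone 8 goes against its labels. With 1 value per line 4125 genes were called, with the 9 Cy5 arrays 4620, and with 1 array left out 5336 (without line 6 replicate 1) to 10853 (without line 5 replicate 1). The number of genes whose arrays did not overlap was 8622, and 10772 without line 5 replicate 1, a setting chosen after seeing the data. Without the replicate block 6080 genes were called, and 7 of the 58 lost their call (Prdm1, Hsf5, Tssc4, Dlk1, Mkrn3, Blcap and Tdgf1). Leaving out members that passed the filter on dim probes only through line 6, chosen after seeing the data, gave medians of 0.22 (germline), 0.34 (2-cell stage) and 0.23 (core and naive). The cause of the changes below was not tested.

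The germline median of 0.23 became 0.32 with a normexp offset of 0, 0.17 with no background correction, 0.29 with median centring, 0.36 with Agilent's ratios, 0.25 with probes well above background on every array, 0.20 with the 9 Cy5 arrays, 0.18 without line 5 and 0.17 with backgrounds as deposited (chosen after seeing the data), and ranged from 0.18 to 0.23 with 1 array left out. The 2-cell stage median of 0.33 became 0.52 with offset 0, 0.22 with no background correction, 0.60 with Agilent's ratios, 0.42 with probes above background on every array, 0.24 with Cy5 arrays, 0.22 within clone B2 and 0.25 with backgrounds as deposited, with a range of 0.24 to 0.39. The core and naive pluripotency median of 0.23 became 0.33 with median centring, 0.37 within clone 8, 0.14 without line 5, 0.14 with the 9 Cy5 arrays and 0.15 with the mean of all probes, with a range of 0.14 to 0.27.

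The median over all imprinted genes, 0.021, reversed to -0.0036 within clone 8 and -0.0041 within clone B2. It was 0.0288 with offset 0, 0.0295 with no background correction, 0.0556 with median centring, 0.0330 with Agilent's ratios, 0.0365 with the deposited table, 0.0128 with no filter, 0.0079 with probes above background on every array, 0.0271 with the mean of all probes, 0.0155 with no dye term, 0.0039 with Cy5 arrays, 0.0128, 0.0065 and 0.0127 without lines 3, 4 and 5, 0.0250 with backgrounds as deposited and 0.0018 to 0.0349 with 1 array left out. Among genes that did not pass, Pou5f1 reversed to -0.0073 without line 4, and Sox2 to 0.0445 with median centring and 0.0204 without line 3. Dnmt3a reversed to 0.17 with the mean of all probes, 0.13 without line 3, 0.0444 with backgrounds as deposited, and 0.0014, 0.0238, 0.0300 and 0.0277 without line 4 replicate 1, line 3 replicate 1, line 6 replicate 2 and line 6 replicate 3, and ranged from -0.32 to 0.0300 over all arrays left out in turn. Nanog, Dnmt3a and Dnmt3l were called without line 5, at 0.54, -0.31 and 0.47, and Dnmt3l with median centring, at 0.60. Median centring put 55.6% of called genes higher in line 6, against 45.8%.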
